A study of Mus musculus with 93 samples.

Results

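The expression of 10 genes that make and move bile acids was followed in mouse liver: Cyp7a1, Cyp8b1, Cyp27a1 and Cyp7b1 for synthesis, Abcb11 and Abcb4 for export into bile, Slc10a1, Slco1a1 and Slco1b2 for uptake from blood, and Abcc3 for export back to blood. They were chosen by name, were found by their Ensembl identifiers, and are 10 of the 53465 genes counted. The livers came from 93 male mice of 7 inbred strains, fed a control diet (CD) or a Western diet (WD). All mice were moved to thermoneutrality (TN, 30°C) at 6 wk of age, started their diet at 7 wk and were killed at 24 wk after 17 wk of diet and a 4 h fast. Fat gave 10% of the energy of CD and 40% of that of WD. Written as CD/WD, the strains held 8/8 mice (C57BL/6J), 6/7 (PWK/PhJ and DBA/2J), 5/6 (A/J), 7/6 (129S1/SvImJ), 6/6 (WSB/EiJ) and 7/8 (CAST/EiJ). The labels name no transgene, deletion or agent besides the diet, and each library was 1 mouse. Females, other ages and room temperature were not analysed here.

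Hepatocytes make bile acids from cholesterol by a classic pathway that opens with CYP7A1 and an alternative pathway that uses CYP27A1 and CYP7B1, and CYP8B1 sets how much cholic acid is formed. Conjugated bile acids leave the hepatocyte through the bile salt export pump ABCB11, are joined in bile by phospholipid moved by ABCB4, and return from the gut through the portal blood, from which SLC10A1 and the SLCO1 carriers take them up. The nuclear receptor FXR, encoded by Nr1h4, senses bile acids and lowers synthesis through its target Nr0b2, and the intestinal hormone FGF15 acts on the liver through FGFR4 and KLB to the same end.

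In the genome (GRCm38, GENCODE annotation) Slco1a1 at chr6:141907282-141946962 and Slco1b2 at chr6:141629518-141686646 lie near each other in a region that holds the Slco1 family, and the other members lie on separate chromosomes. Cyp7a1 lies at chr4:6265612-6275633, Cyp8b1 at chr9:121914356-121916305, Cyp27a1 at chr1:74713574-74737892 and Cyp7b1 at chr3:18071950-18243338. Abcb11 lies at chr2:69238282-69342616, Abcb4 at chr5:8893717-8959231, Slc10a1 at chr12:80953183-80968705 and Abcc3 at chr11:94343295-94392997. Exons of Abcb11 overlap the genes Gm13613 and Gm13614 on the opposite strand, and the sources do not say whether the counting used strand. The counting set ambiguous reads apart. If strand was not used, reads over the shared exons could have been left out of the Abcb11 count.

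The 250 bases before a RefSeq start of 4 members hold the nuclear receptor core motif AGGTCA on 1 of the strands. These stretches are shown because all 4 code for transporters, as do 5 of the 7 members with a promoter to search (the fifth is the phospholipid carrier Abcb4). RefSeq promoters (GRCm38.p6, from 250 bases before to 50 after the start) were found for 7 of the 10 members, 8 promoters in all since Slc10a1 has a pair. The Slc10a1 stretch shown lies before the second of its starts, inside the gene span given above, and the promoter at the outer start holds no AGGTCA. Capitals mark AGGTCA, or TGACCT where the motif is on the opposite strand, and each run is 60 bases, 5′ to 3′ on the strand of the gene.
Abcb11, chr2:69342640-69342699, minus strand: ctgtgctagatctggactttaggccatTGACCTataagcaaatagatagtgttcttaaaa
Slc10a1, chr12:80968134-80968193, minus strand: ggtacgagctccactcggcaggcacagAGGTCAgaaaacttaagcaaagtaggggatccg
Slco1a1, chr6:141946963-141947022, minus strand: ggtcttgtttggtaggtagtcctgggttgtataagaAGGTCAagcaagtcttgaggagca
Slco1a1, chr6:141947064-141947123, minus strand: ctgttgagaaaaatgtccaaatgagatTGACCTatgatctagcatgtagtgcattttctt
Slco1b2, chr6:141629410-141629469, plus strand: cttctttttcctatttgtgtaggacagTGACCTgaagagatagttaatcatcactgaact
The motif begins 56 bases before the start in Abcb11, 87 before the inner start in Slc10a1, 24 and 134 in Slco1a1, and 81 in Slco1b2. It was found on either strand in 4 of the 8 member promoters and in 16.3% of all 32851 promoters. No member promoter held the Nr5a2 motif CAAGGTCA (1.56% of all promoters), its longer form TCAAGGTCA (0.423%), the D-box TTATGTAA (0.938%), or AGGTCA repeated with a spacer of 1 base, as an inverted repeat (0.00913%) or a direct repeat (0.0396%). Both forms of the Nr5a2 motif and both repeats contain AGGTCA. These are matches of letters in a short window of the C57BL/6J reference, and binding was not measured.

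Libraries held between 40020424 and 49894856 reads on genes (median 46618609), and RNA integrity numbers were between 7.0 and 9.7. All reads were mapped to the C57BL/6J genome, and the median share of unmapped reads was 2.39% in C57BL/6J, 2.20% in A/J, 5.16% in 129S1/SvImJ, 5.42% in DBA/2J, 5.48% in PWK/PhJ, 6.05% in WSB/EiJ and 12.5% in CAST/EiJ. In PWK/PhJ the unmapped share ran from 2.22% to 4.23% on CD and from 5.48% to 8.73% on WD. In every other strain the ranges on CD and WD overlapped. What part unmapped reads had in levels compared between strains or between diets was not tested. All 10 genes passed the filter on low counts, which kept 19110 genes, and the lowest count of any of them in any mouse was 230, for Cyp7a1. Values are read counts scaled to a common library size (CPM) at TMM-scaled library sizes, and a diet effect is the log2 difference between WD-TN and CD-TN in 1 strain. A gene was called when its limma-voom adjusted p, corrected over all genes tested in that comparison, was under 0.05. In RNA of whole liver, fewer cells of a type and less RNA per cell cannot be told apart. The 12 hepatocyte markers summed to between 85681 and 239278 CPM over all mice, and no marker of any cell type list was at 0 in all mice of a group.

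A pair of C57BL/6J livers stood apart from the rest of their groups for most of these genes. Replicate 2 on CD had the lowest value of its 8 mice for 9 of the 10 genes. Its Slco1a1 level was 7.01 CPM, where the other 7 mice had between 237 and 632, and the median of those others was 74.7 times higher. Its Cyp7b1 level was 9.01 CPM (others 29.8 to 133) and its Slc10a1 level 167 CPM (others 477 to 1222). Replicate 3 on WD had the lowest value of its group for 7 of the 10 genes, with Cyp8b1 at 53.4 CPM (others 157 to 275) and Slco1b2 at 478 CPM (others 905 to 1105), while its Abcb11 level of 409 CPM lay at the median of the others. Across all genes tested, the CD mouse had the lowest median correlation with its own group of all 93 mice (0.950). The WD mouse had the third lowest (0.9759, where the highest was 0.991), close to CAST/EiJ CD replicates 6 (0.9757) and 5 (0.9763).

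In the same livers, summed markers of bile duct cells were 744 CPM in the CD mouse (others 144 to 396) and 767 CPM in the WD mouse (others 185 to 555). Summed markers of stellate cells and fibroblasts were 1083 CPM in the CD mouse (others 355 to 535) and 1320 CPM in the WD mouse (others 360 to 862). Summed hepatocyte markers were 132537 CPM (others 130296 to 149848) and 89465 CPM (others 85681 to 114666), inside the range of their groups. Summed pericentral hepatocyte genes were below that range, at 2805 CPM in the CD mouse (others 4968 to 10750) and 3049 CPM in the WD mouse (others 9284 to 12180). Summed endothelial markers (431 CPM, others 526.3 to 594, and 435 CPM, others 496 to 597) and clock genes (350 CPM, others 488 to 1058, and 565 CPM, others 670 to 962) were also below it in both. Periportal genes were just below it in the CD mouse (14927 CPM, others 15425 to 17790), lymphocyte markers were above it in both, and macrophage markers were inside it. Their RNA integrity numbers were 8.7 and 8.8. The part that these cell types and gene groups had in the low values was not tested. Since all groups share 1 estimate of the spread, these mice enter the test of every strain, and results are given with all 93 mice and, where a call differed, also without these (91 mice). The fits with 91 mice were added after the data were seen, and the pair was picked for low values of these same genes. A smaller spread of the members with 91 mice follows in part from that choice. Calls gained with 91 mice are thus no independent support. The SD within groups of log2 Slco1a1 was 0.76 with 93 mice and 0.40 with 91, of Cyp27a1 0.24 and 0.15, and of Cyp7a1 1.01 and 1.00.

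**Figure D1:**
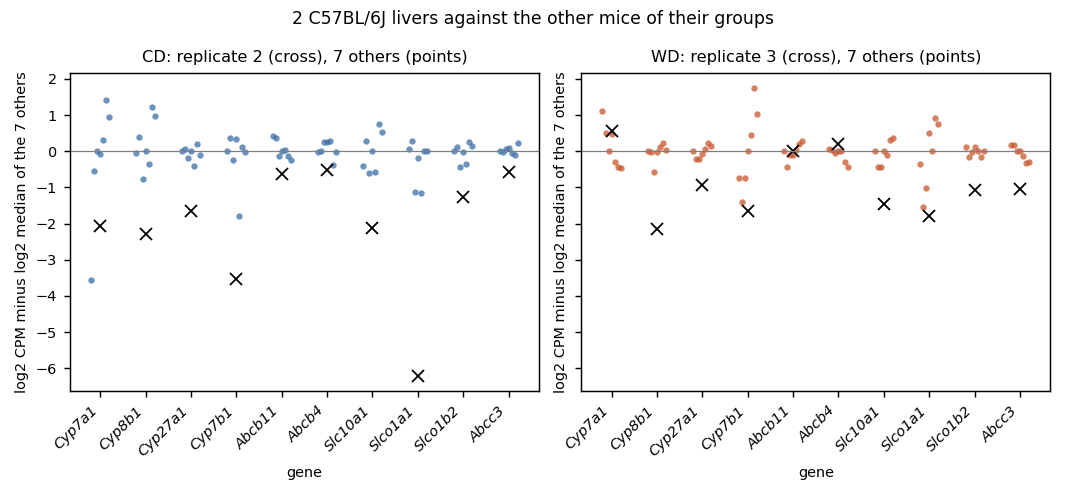
For each of the 10 genes, the log2 CPM of each C57BL/6J mouse minus the log2 median of the 7 other mice of its group, on CD (left) and WD (right); the cross is CD replicate 2 or WD replicate 3 and points are the other mice. The cross lies lowest for 9 genes on CD and for 7 on WD, and reaches -6.22 for Slco1a1 on CD.

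Diet moved the genes of synthesis in different directions. Averaged over the 7 strains with equal weight, Cyp7a1 rose by 1.36 on the log2 scale (SE 0.21, adjusted p = 4.39e-08) and Cyp8b1 fell by 0.43 (SE 0.11, adjusted p = 0.000427), while Cyp27a1 (-0.11, SE 0.05, adjusted p = 0.0640) and Cyp7b1 (-0.24, SE 0.14, adjusted p = 0.151) were not called. For this averaged effect, 27.1% of all genes tested were called higher and 24.5% lower, and of the 10 members 3 were called higher and 4 lower. Without the pair of C57BL/6J mice, Cyp27a1 (-0.12, adjusted p = 0.000967) and Cyp7b1 (-0.26, adjusted p = 0.0365) were also called lower, where 25.3% of genes were.

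Cyp7a1, the rate-limiting enzyme of the classic pathway, was higher on WD-TN in 3 of 7 strains. In CAST/EiJ it ran from 26.0 CPM to 341 CPM on CD-TN (median 45.7, mean 115 ± 117 SD, n = 7) and from 330 to 1166 CPM on WD-TN (median 495, mean 563 ± 285, n = 8). All but 1 of the 8 WD mice were above every CD mouse, and the fitted level was 6.89 times higher (log2 2.79, SE 0.52, adjusted p = 3.16e-05; 9.77% of all genes were called higher in this strain and 9.73% lower). DBA/2J mice had between 5.15 and 57.1 CPM on CD-TN (median 29.8, n = 6) and between 70.9 and 257 CPM on WD-TN (median 132, n = 7). The groups did not overlap, and the level was 5.65 times higher (log2 2.50, SE 0.56, adjusted p = 0.000513; 10.2% of genes called higher, 7.77% lower).

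The 5 A/J mice on CD-TN had 54.3, 117, 237, 151 and 345 CPM, and the 6 on WD-TN ran from 216 to 867 CPM with a median of 654. The level was 3.64 times higher (log2 1.86, SE 0.62, adjusted p = 0.0411; 4.39% of genes called higher, 4.64% lower), and 5 of the 6 WD mice were above every CD mouse. Leaving out any 1 of 8 of the 11 A/J mice took the adjusted p past 0.05, up to 0.165 without CD replicate 1 (the others were CD replicates 2 and 4 and WD replicates 1, 2, 3, 4 and 6). PWK/PhJ had a median of 31.4 CPM on CD-TN and 83.3 on WD-TN (log2 1.23, adjusted p = 0.0763), WSB/EiJ 78.7 and 178 CPM (log2 1.15, adjusted p = 0.214) and 129S1/SvImJ 304 and 414 CPM (log2 0.28, adjusted p = 0.770), and none of these passed the test. Leaving out PWK/PhJ CD replicate 6 gave a call in that strain (log2 1.53, adjusted p = 0.0331).

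C57BL/6J was the strain in which the Cyp7a1 estimate had a negative sign, with 10.1 to 315 CPM on CD-TN (median 115, n = 8) and 46.6 to 139 CPM on WD-TN (median 76.5, n = 8), overlapping ranges and a diet effect of -0.26 (SE 0.48, adjusted p = 0.753). The labels place the mice in cohorts, and the sign differed between the cohorts of this strain: WD minus CD was 1.71 in cohort 1 (3 CD and 5 WD mice) and -1.80 in cohort 2 (5 CD and 3 WD mice) in mean log2 CPM. In CAST/EiJ the cohort values were 0.19 (1 CD mouse), 3.49 and 3.33, in DBA/2J 3.10 and 1.95, and in A/J 3.04 and 0.74. Over all 20 diet effects called among the members, each of the 46 values within a cohort had the sign of the pooled value. Those effects were called from the same mice, so shared signs are no independent check. Among effects not called, signs could differ, as for Abcb4 in DBA/2J (-0.07 and 0.82).

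The Cyp7a1 effect differed between strains (F test over the 7 diet effects, adjusted p = 0.00287, a test that called 37.5% of all genes). Against the mean of the other 6 strains, the effect was lower by 1.89 on the log2 scale in C57BL/6J (SE 0.53, adjusted p = 0.0236) and higher by 1.66 in CAST/EiJ (SE 0.56, adjusted p = 0.0349). The C57BL/6J call was lost with any count allowed (limma adjusted p = 0.0952) and with cohort as a covariate (0.0502). The CAST/EiJ call was lost with either of these (0.0787 and 0.0889) and with edgeR (0.0656). Cyp7a1 transcripts follow the time of day. Of 17 clock genes, 12 were called in C57BL/6J (26.2% of all genes in either direction), 8 in DBA/2J (18%), 3 in A/J (9.03%), 2 in 129S1/SvImJ (28%), 1 in WSB/EiJ (8.94%), 2 in CAST/EiJ (19.5%) and 3 in PWK/PhJ (29.6%). The share of clock genes called exceeded that of all genes in A/J, C57BL/6J and DBA/2J. It fell short of that share in CAST/EiJ, PWK/PhJ, WSB/EiJ and 129S1/SvImJ. Averaged over strains, 6 clock genes were higher and 4 lower, beside 27.1% and 24.5% of all genes. Ciart (0.81) and Bhlhe41 (0.72) were higher, and Arntl, the partner of CLOCK, was lower (-0.90). The part of the clock in the Cyp7a1 values was not tested.

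Cyp8b1, the sterol hydroxylase of cholic acid synthesis, had a negative estimate in all 7 strains, from -0.77 in CAST/EiJ to -0.09 in C57BL/6J and in WSB/EiJ. The C57BL/6J sign was not stable. It was positive without CD replicate 7 (0.11), CD replicate 8 (0.07) or WD replicate 3 (0.18). Within cohorts 1 and 2 of that strain, WD minus CD was 0.20 and 0.01 in mean log2 CPM. Only the CAST/EiJ value passed the test in a single strain. Mice of that strain had 213 to 894 CPM on CD-TN (median 626, n = 7) and 228 to 383 CPM on WD-TN (median 299, n = 8), and the level was 1.70 times lower on WD-TN (SE of the log2 effect 0.27, adjusted p = 0.0311). The WD range lay inside the CD range, and the call was lost without any 1 of 7 of the 15 mice, CD replicates 3, 5, 6 and 7 and WD replicates 2, 3 and 6 (adjusted p up to 0.116). In A/J the ranges did not overlap (249 to 488 CPM on CD-TN, 191 to 247 on WD-TN), yet the estimate of -0.61 was not called (adjusted p = 0.220). The F test gave no difference in effect between strains (adjusted p = 0.603).

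Cyp7b1, the oxysterol hydroxylase of the alternative pathway, was lower on WD-TN in A/J alone among single strains. The 5 A/J mice on CD-TN had 126, 122, 73.8, 94.7 and 162 CPM, and the 6 on WD-TN ran from 32.4 to 60.7 CPM with a median of 41.7. No value was shared between the groups, and the level was 2.60 times lower (log2 -1.38, SE 0.38, adjusted p = 0.0111). The effect differed between strains (F test, adjusted p = 0.0275, and 0.323 with any count allowed, which ended the call), with estimates from -1.38 in A/J to 0.61 in WSB/EiJ, where CD mice had 231 to 956 CPM and WD mice 419 to 1104 (adjusted p = 0.387). In C57BL/6J the estimate was 0.34 with all mice and -0.07 without CD replicate 2, and neither was called.

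Cyp27a1, the mitochondrial sterol 27-hydroxylase, was called in no strain with 93 mice. Its DBA/2J ranges did not overlap, 375 to 457 CPM on CD-TN (median 394) and 297 to 367 CPM on WD-TN (median 321), with an estimate of -0.33 (adjusted p = 0.0712). With 91 mice it was called lower in DBA/2J (-0.33, adjusted p = 0.00177; 8.78% of genes lower) and in C57BL/6J (-0.30, adjusted p = 0.00186; 12.4% lower), and the F test for a difference between strains also passed (adjusted p = 0.00116; 43.5% of genes).

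**Figure D2:**
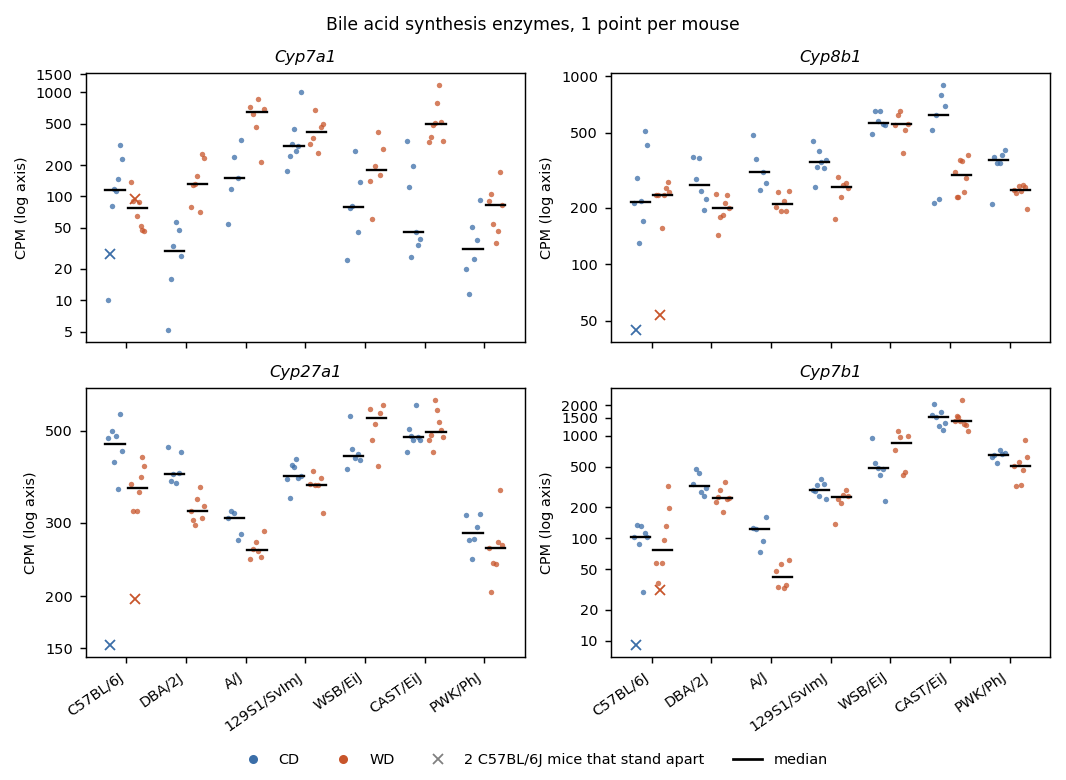
CPM on a log axis of the 4 synthesis genes in each mouse, by strain and diet (blue CD, orange WD); bars are group medians and crosses are the 2 C57BL/6J mice that stood apart. DBA/2J mice on WD lie above all DBA/2J mice on CD for Cyp7a1, and CAST/EiJ mice on both diets lie highest for Cyp7b1, with medians of 1524 and 1404 CPM.

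Of the canalicular exporters, Abcb11, which pumps bile salts into bile, moved in opposite directions in different strains. C57BL/6J mice had 415 to 861 CPM on CD-TN (median 615, n = 8) and 305 to 495 CPM on WD-TN (median 410, n = 8). The level was 1.55 times lower on WD-TN (log2 -0.63, SE 0.11, adjusted p = 4.68e-06; 14.3% of genes were called higher and 11.9% lower in this strain). In DBA/2J the ranges of 503 to 737 CPM on CD-TN and 351 to 482 CPM on WD-TN did not overlap, and the level was 1.44 times lower (log2 -0.52, SE 0.12, adjusted p = 0.000826).

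CAST/EiJ went the other way, from 247 to 477 CPM on CD-TN (median 388, n = 7) to 386 to 590 CPM on WD-TN (median 435, n = 8), 1.26 times higher (log2 0.34, SE 0.11, adjusted p = 0.0200). The groups overlapped, and the call was lost without CD replicate 5, 6 or 7 or WD replicate 4 (adjusted p up to 0.121). WSB/EiJ had a similar estimate of 0.31, with 5 of 6 WD mice above every CD mouse (379 to 478 CPM on CD-TN, 470 to 615 on WD-TN), which was not called (adjusted p = 0.103; 4.97% of genes higher, 3.97% lower). PWK/PhJ (-0.29, adjusted p = 0.0573) was called lower with 91 mice (adjusted p = 0.0441; 15.4% of genes lower), and A/J (-0.29, adjusted p = 0.155) and 129S1/SvImJ (-0.17, adjusted p = 0.288) were not called with either set.

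The strain difference of Abcb11 had the smallest adjusted p of the 10 genes (F test, 8.69e-07). Against the mean of the other 6 strains, the effect was lower by 0.53 in C57BL/6J (adjusted p = 0.00403) and by 0.40 in DBA/2J (adjusted p = 0.0409, and 0.0622 with any count allowed), and higher by 0.57 in WSB/EiJ (adjusted p = 0.0127) and by 0.60 in CAST/EiJ (adjusted p = 0.000212). This contrast called 4.69% of all genes in C57BL/6J, 7.77% in DBA/2J, 0.466% in A/J, 6.28% in 129S1/SvImJ, 0.947% in WSB/EiJ, 14.5% in CAST/EiJ and 16.3% in PWK/PhJ. The effect averaged over strains was -0.18 (SE 0.04, adjusted p = 0.000509), an average of opposite signs.

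Abcb4, the flippase that supplies phospholipid to bile, was higher on WD-TN in 129S1/SvImJ and lower in CAST/EiJ. The 129S1/SvImJ mice had 185 to 240 CPM on CD-TN (median 195, n = 7) and 241 to 316 CPM on WD-TN (median 297, n = 6). The groups did not overlap, and the level was 1.39 times higher (log2 0.48, SE 0.16, adjusted p = 0.0149; 14.5% of genes higher, 13.6% lower). CAST/EiJ mice had 183 to 500 CPM on CD-TN (median 359) and a narrow 209 to 252 CPM on WD-TN (median 233), inside the CD range, with a level 1.40 times lower (log2 -0.48, SE 0.14, adjusted p = 0.0112). That call was lost without CD replicate 5 or 7 (adjusted p 0.0802 and 0.0506). The effect differed between strains (F test, adjusted p = 0.00115), and in CAST/EiJ it was lower by 0.67 than the mean of the other 6 (adjusted p = 0.00182). In CAST/EiJ the 2 canalicular exporters thus had opposite signs, while in DBA/2J Abcb11 was lower and Abcb4 had an estimate of 0.38 that was not called (adjusted p = 0.0791, and called without CD replicate 2 or 3, at 0.51 and 0.53).

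Slc10a1, the sodium-dependent carrier that takes conjugated bile acids from blood, was called lower on WD-TN in 3 strains with 93 mice. With 91 mice it was called lower in 6, in a set chosen after low values of the members, this gene included, were seen. PWK/PhJ mice had 1077 to 1314 CPM on CD-TN (median 1278, n = 6) and 513 to 825 CPM on WD-TN (median 708, n = 7). The groups did not overlap, and the level was 1.83 times lower (log2 -0.87, SE 0.20, adjusted p = 0.000335; 15.1% of genes called higher, 14.5% lower). The 129S1/SvImJ mice had 1188 to 1385 CPM on CD-TN (median 1287, n = 7) and 656 to 822 CPM on WD-TN (median 729, n = 6), again without overlap and 1.74 times lower (log2 -0.80, SE 0.20, adjusted p = 0.00127).

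In C57BL/6J, Slc10a1 ran from 167 to 1222 CPM on CD-TN (median 638) and from 176 to 619 CPM on WD-TN (median 465), overlapping ranges with a called effect of -0.55 (SE 0.17, adjusted p = 0.0117). Leaving out WD replicate 3, CD replicate 7 or CD replicate 8 ended that call (adjusted p 0.0837, 0.0690 and 0.0552), and it held with 91 mice. The WSB/EiJ groups did not overlap (1024 to 1285 CPM on CD-TN, 718 to 889 on WD-TN), with an estimate of -0.54 that was not called with 93 mice (adjusted p = 0.0819) and was with 91 (-0.55, adjusted p = 0.00251; 5.20% of genes lower). A/J (-0.42, adjusted p = 0.0408; 5.63% of genes lower) and DBA/2J (-0.37, adjusted p = 0.0273) were also called with 91 mice only. CAST/EiJ was not called in either set, at -0.20 with 93 mice. The strain difference passed the F test with 91 mice (adjusted p = 0.0120) and not with 93 (adjusted p = 0.264).

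Summed cell type markers differed between diets in strains with and without a call of Slc10a1. In PWK/PhJ, summed markers of bile duct cells ran from 131 to 225 CPM on CD-TN and 293 to 836 CPM on WD-TN, and summed markers of stellate cells and fibroblasts from 155 to 236 and 329 to 736 CPM. In 129S1/SvImJ the bile duct markers summed to 68.8 to 99.3 CPM and 147 to 199 CPM. Summed hepatocyte markers were 131626 to 161554 CPM on CD-TN and 90985 to 114493 CPM on WD-TN in PWK/PhJ, and 114088 to 149518 and 90884 to 117824 CPM in 129S1/SvImJ. In CAST/EiJ, where Slc10a1 was not called, they were 124585 to 155490 and 87436 to 108563 CPM. Averaged over strains, 6 of 10 bile duct markers, 9 of 12 macrophage markers, 7 of 12 stellate markers and 5 of 12 lymphocyte markers were called higher, and 9 of 12 hepatocyte markers and 9 of 12 periportal genes lower. Of 10 endothelial markers 2 were higher and 5 lower, and of 11 pericentral genes 4 and 2. Of all genes tested, 27.1% were called higher and 24.5% lower for this averaged effect. The part of these cell types in the members' values was not tested.

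Slco1a1, an organic anion carrier that male liver expresses strongly, was called in no strain with 93 mice although its averaged effect was (-0.38, SE 0.16, adjusted p = 0.0371). With cohort as a covariate the averaged effect was not called either (-0.33, adjusted p = 0.0699). The 5 A/J mice on CD-TN had 506, 547, 324, 413 and 512 CPM, and the 6 on WD-TN ran from 95.7 to 376 CPM with a median of 184. All but 1 of the WD mice lay below every CD mouse, with an estimate of -1.29 that just missed the threshold (adjusted p = 0.0524) and was called with 91 mice (-1.29, SE 0.23, adjusted p = 4.99e-05). The groups did not overlap in DBA/2J (601 to 781 CPM on CD-TN, 469 to 596 on WD-TN) or in 129S1/SvImJ (714 to 818 and 481 to 592 CPM), and neither was called with 93 or 91 mice.

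In C57BL/6J the Slco1a1 estimate was -0.35 (adjusted p = 0.530) with all mice, -1.07 (adjusted p = 6.37e-05) without CD replicate 2, and -0.86 (SE 0.21, adjusted p = 0.000701) with 91 mice. With 91 mice the effect also differed between strains (F test, adjusted p = 0.00172), being lower by 0.97 in A/J and higher by 0.69 in CAST/EiJ than the mean of the others. Other male-biased liver genes gave 2 called higher and 2 lower of 8 averaged over strains, beside 27.1% and 24.5% of all genes, and female-biased genes 1 and 6 of 14. In PWK/PhJ 9 of the 14 female-biased genes were called lower (median -2.77), and in each other strain at most 2 were. Hsd3b5, a steroid dehydrogenase of male liver, was lower in A/J (log2 -2.98, adjusted p = 0.0282).

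Slco1b2, the liver's sodium-independent bile acid and anion carrier, had a positive estimate in all 7 strains and an averaged effect of 0.25 (SE 0.05, adjusted p = 2.58e-05). The PWK/PhJ estimate of 0.02 turned negative without CD replicate 2 (-0.002) or WD replicate 6 (-0.04). In CAST/EiJ it ran from 748 to 1033 CPM on CD-TN (median 926) and from 1111 to 1380 CPM on WD-TN (median 1186), without overlap and 1.36 times higher (log2 0.44, SE 0.13, adjusted p = 0.00758). C57BL/6J had 331 to 956 CPM on CD-TN (median 793) and 478 to 1105 CPM on WD-TN (median 1001), with a called effect of 0.39 (SE 0.12, adjusted p = 0.0112) that was lost without CD replicate 2 (0.24, adjusted p = 0.0767). WSB/EiJ had an estimate of 0.41 (adjusted p = 0.0503), called with 91 mice (0.40, adjusted p = 0.00488; 5.63% of genes higher) and without WD replicate 4 (0.52, adjusted p = 0.00887), which had the lowest value of its group for 8 of the 10 genes. Averaged over strains, Slc10a1 and Slco1a1 were lower and Slco1b2 higher, Slco1a1 not with cohort as a covariate.

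Abcc3, which exports bile acids and conjugates back to blood, was higher on WD-TN in 5 of 7 strains and had the smallest adjusted p of the averaged effects (0.61, SE 0.07, adjusted p = 2.90e-12). DBA/2J mice had 126 to 209 CPM on CD-TN (median 158) and 224 to 307 CPM on WD-TN (median 261), without overlap and 1.68 times higher (log2 0.75, SE 0.18, adjusted p = 0.00134). The 129S1/SvImJ groups did not overlap either, at 229 to 301 CPM and 343 to 420 CPM, 1.49 times higher (log2 0.57, adjusted p = 0.0140). In C57BL/6J all but 1 of the 8 WD mice (198 to 457 CPM, median 389) were above every CD mouse (145 to 252 CPM, median 214), the exception being WD replicate 3, and the level was 1.71 times higher (log2 0.78, adjusted p = 0.000160).

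WSB/EiJ (64.1 to 109 CPM on CD-TN, 99.4 to 194 on WD-TN) was 1.64 times higher (adjusted p = 0.00516), and CAST/EiJ (17.7 to 31.3 CPM on CD-TN, 15.5 to 83.0 on WD-TN) 1.72 times higher (adjusted p = 0.000299). A/J (0.38, adjusted p = 0.238) and PWK/PhJ (0.27, adjusted p = 0.271) were not called, and the F test gave no difference between strains (adjusted p = 0.363).

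**Figure D3:**
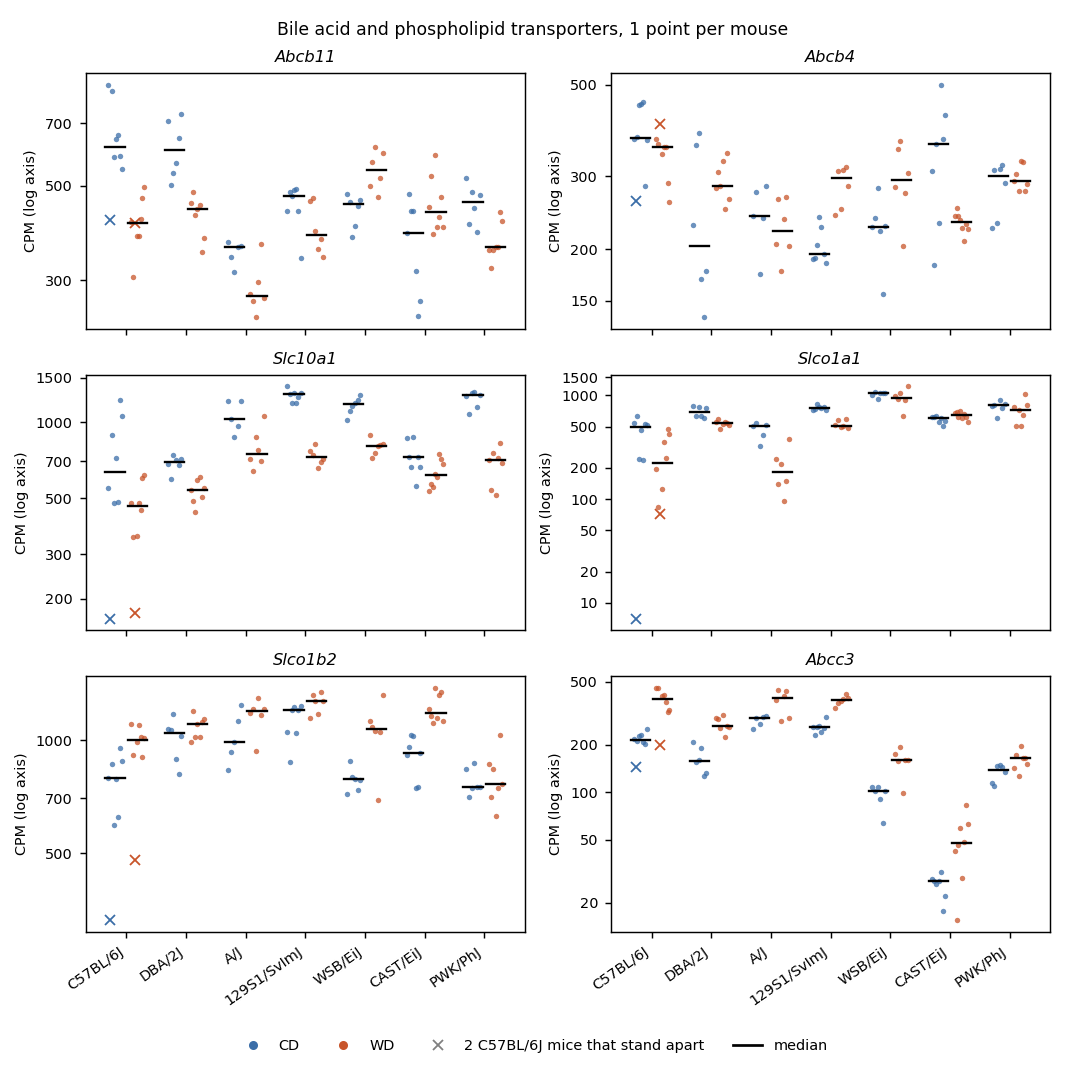
CPM on a log axis of the 6 transporter genes in each mouse, by strain and diet (blue CD, orange WD); bars are group medians and crosses are the 2 C57BL/6J mice that stood apart. Slc10a1 medians are lower on WD in all 7 strains, and Abcc3 medians higher in all 7, from a CD median of 27.5 CPM in CAST/EiJ to 293 CPM in A/J.

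Counted by strain, the members called were 4 in C57BL/6J, 3 in DBA/2J, 2 in A/J, 3 in 129S1/SvImJ, 1 in WSB/EiJ, 6 in CAST/EiJ and 1 in PWK/PhJ, 20 in all. The shares of all genes called in either direction were 26.2%, 18%, 9.03%, 28%, 8.94%, 19.5% and 29.6% in the same order, so that in several strains the count out of 10 was near the share of all genes, and in PWK/PhJ it was below. With 91 mice the counts were 6, 5, 4, 3, 3, 6 and 2, beside 29.1%, 20.1%, 11.3%, 30.7%, 10.8%, 21.7% and 31.9% of all genes, and no call was lost. The F test for a difference of the diet effect between strains called 4 members with 93 mice (Cyp7a1, Cyp7b1, Abcb11 and Abcb4; 37.5% of all genes) and 7 with 91 (43.5%).

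**Figure D4:**
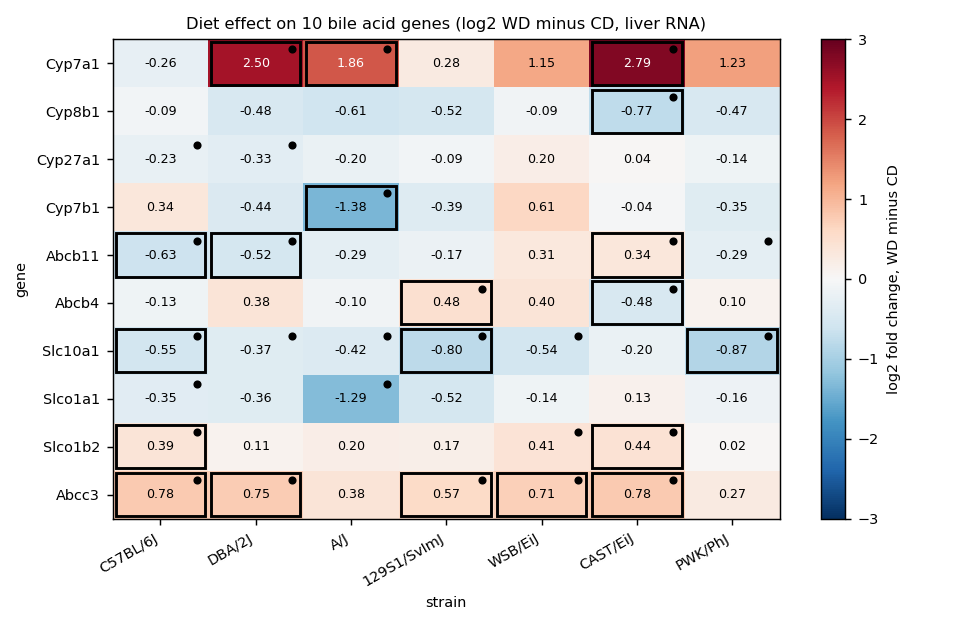
Diet effect (log2 WD minus CD) of each gene (rows) in each strain (columns), from -3 (blue) to 3 (red); boxes mark calls with 93 mice and dots calls with 91. Abcc3 and Slco1b2 are positive in all 7 strains and Cyp8b1 and Slc10a1 negative in all 7, while Abcb11 is boxed at -0.63 in C57BL/6J and at 0.34 in CAST/EiJ.

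**Figure D5:**
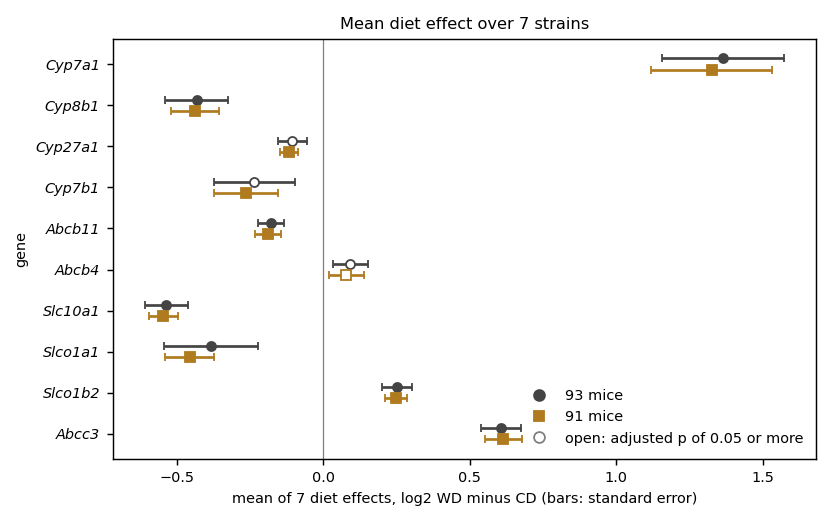
Diet effect averaged over the 7 strains for each gene, with its standard error, from 93 mice (circles) and 91 mice (squares); open marks have an adjusted p of 0.05 or more. Cyp7a1 lies farthest right at 1.36 and Slc10a1 farthest left at -0.54, and Cyp27a1 and Cyp7b1 are open with 93 mice and filled with 91.

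Levels on CD-TN differed between strains for all 10 genes (F test, adjusted p from 1.31e-32 for Abcc3 to 0.000170 for Slco1a1), in a test that called 93.7% of all genes. Cyp7b1 had the widest spread: its group means differed 17.1-fold, with medians of 1524 CPM in CAST/EiJ, 656 in PWK/PhJ, then 480 (WSB/EiJ), 325 (DBA/2J), 293 (129S1/SvImJ), 122 in A/J and 103 in C57BL/6J. CAST/EiJ mice lay above all PWK/PhJ mice, 129S1/SvImJ mice lay above all A/J mice, and the other neighbours in that order overlapped. Cyp7a1 means differed 12.8-fold, from a median of 304 CPM in 129S1/SvImJ to 29.8 in DBA/2J, and every pair of neighbours overlapped.

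Abcc3 means differed 11.01-fold, from a median of 293 CPM in A/J, through 258 in 129S1/SvImJ, 214 in C57BL/6J, 158 in DBA/2J, 139 in PWK/PhJ and 102 in WSB/EiJ, to 27.5 in CAST/EiJ. PWK/PhJ mice lay above all WSB/EiJ mice and those above all CAST/EiJ mice. CAST/EiJ was thus highest in Cyp7b1 and lowest in Abcc3. The other 7 genes had group means within 2.60-fold of each other. Slc10a1 split into WSB/EiJ, A/J, 129S1/SvImJ and PWK/PhJ (medians 1025 to 1287 CPM) and CAST/EiJ, DBA/2J and C57BL/6J (638 to 729 CPM), and the A/J and CAST/EiJ mice that face each other across that step only just did not overlap (lowest A/J mouse 872 CPM, highest CAST/EiJ mouse 871). C57BL/6J mice reached 1222 CPM, into the range of the first 4 strains.

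Per kilobase of exon, the median level over all 93 mice was highest for Slc10a1 (330 CPM per kb), then Slco1b2 (207), Cyp27a1 (177), Cyp7b1 (149), Cyp8b1 (135), Slco1a1 (114), Abcb11 (84.8), Abcc3 (34.7), Cyp7a1 (33.0) and Abcb4 (29.5). Cyp7a1 varied most between mice of 1 group, with an SD of log2 CPM within groups at the 99.0 percentile of all genes tested, while Abcb11 was at the 38.7 percentile.

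The other genes of the pathway moved in both directions. Of 15 other synthesis and conjugation genes tested, 6 were higher and 1 lower averaged over strains (median 0.02, all genes 0.01), where 27.1% of all genes were higher and 24.5% lower. The same shares stand beside the counts of transporters and regulators that follow. Cyp39a1, an oxysterol hydroxylase, was the lower one (-1.27, adjusted p = 1.25e-08), called in C57BL/6J (-1.95), 129S1/SvImJ (-1.76), WSB/EiJ (-2.25) and CAST/EiJ (-1.76). Ch25h, the cholesterol 25-hydroxylase, had an averaged effect of 1.88 (adjusted p = 1.82e-08). Its CD-TN means in the strains lay between 0.0102 and 0.0722 CPM, fewer reads than the filter minimum of 10 counts. It thus passed the filter mainly through WD mice, and its test is not free of that selection. Cyp2c70, which makes the muricholic acids of rodents, rose by 0.29 (adjusted p = 0.00136) and was called in CAST/EiJ alone among strains (0.72, adjusted p = 0.00502). Hsd3b7 was listed at 0 in every mouse and had no diet test, and whether this reflects its expression or the counting was not tested.

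Of 11 other transporters of bile acids and biliary lipids, 5 were higher and 1 lower (median 0.08). Abcg2, an exporter of sterol and drug conjugates, was higher in all 7 strains, from 0.51 in A/J and CAST/EiJ to 1.25 in WSB/EiJ. Abcg5, which with ABCG8 moves cholesterol into bile, was higher in 6 strains, with 1.73 in WSB/EiJ and 0.29 without a call in 129S1/SvImJ (adjusted p = 0.112). Slco1a4, a neighbour of Slco1a1, was lower by 0.66 (adjusted p = 1.02e-06).

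Of 14 receptors and regulators, 3 were higher and 7 lower (median -0.06). Nr1h4, the bile acid receptor FXR, was lower in 129S1/SvImJ alone among strains (-0.51, adjusted p = 0.000400), with an averaged effect of -0.10 (adjusted p = 0.0347). Its target Nr0b2 was called in no strain, at -0.75 in 129S1/SvImJ (adjusted p = 0.163) and 0.82 in CAST/EiJ (adjusted p = 0.109). Klb, the co-receptor of FGF15, was lower by 0.49 (adjusted p = 2.07e-08). Vdr rose by 1.06, with low CD-TN means that lay between 0.0210 and 0.277 CPM in the strains. Fgf15 and Gpbar1 did not pass the filter, with at most 2 and 11 reads in a mouse.

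Within groups, the genes were compared by Pearson correlation of log2 CPM over mice after the mean of each group was taken off, as a description with no test, since mice share strain and cohort. Among members, r was highest for Cyp27a1 and Slco1a1 (0.84 with 93 mice, 0.57 with 91), Slc10a1 and Slco1a1 (0.82 and 0.61) and Cyp7b1 and Slco1a1 (0.81 and 0.72), lower each time without the pair of C57BL/6J mice. Cyp7a1 and Cyp8b1 had an r of -0.03 and -0.15. Of all genes tested, Slco1a1 was most like Mup3 (0.95) and Sult2a8 (0.92) with 93 mice and Slc22a28 (0.89) and Hsd3b5 (0.87) with 91. Cyp7b1 was most like Cyp2d9 (0.83) and Hsd3b5 (0.83) with 93 mice and C8b (0.80) and Mup12 (0.79) with 91. Slc10a1 was most like Sult2a8 (0.90) and Masp2 (0.86) with 93 mice and Sult2a8 (0.75) and Mthfd1 (0.74) with 91. Cyp27a1 was most like Sult2a8 (0.86) and Mfsd4b1 (0.85) with 93 mice and Cyp4f14 (0.68) and Lipc (0.68) with 91. Slco1b2 was most like Mia2 (0.84) and Slc25a16 (0.83) with 93 mice and Nadk2 (0.80) and Ces1f (0.71) with 91.

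Both genes were the same with either set for Abcb11 (Cd164, 0.75, and Gm10033, 0.70, with 93 mice), Abcb4 (Hsdl2, 0.85, and Slc22a5, 0.84) and Cyp7a1 (Gm11798, 0.72, and Nr3c2, 0.72). Cyp8b1 was most like Sar1b (0.78) and Marc1 (0.78) with 93 mice and Marc1 (0.69) and Cmbl (0.68) with 91, and Abcc3 like Aldh1a1 (0.58) and Gm6152 (0.55) with 93 and Gm6152 (0.59) and Ces1g (0.58) with 91.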

How the data were processed

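Liver RNA of 93 male mice was sequenced on a BGISEQ-500 and mapped by the authors with STAR (version 2.7.1a per the labels) to the C57BL/6J reference (GRCm38), without trimming and with the same genome for every strain. The authors deposited raw read counts per gene for each mouse, with no normalization. The annotation release and the strand setting of the counting are not given in the sources used here. Reads of strains far from C57BL/6J can be lost in mapping, which touches levels compared between strains.

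Counts were filtered with edgeR (4.0.16) filterByExpr at a minimum count of 10, TMM-normalized and fitted with limma (3.58.1) voom in R (4.3.3), as 14 group means. Contrasts were WD minus CD in each strain, their mean over strains, each strain against the other 6, F tests over the differences between strains, and F tests over CD levels. Benjamini-Hochberg adjustment ran over all genes tested within each contrast, with a threshold of 0.05. A prior count of 2 was used for log2 CPM. The fit was tested on simulated counts. P-values measure the spread between mice. The replicate numbers only name mice and pair none.

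Group values are CPM. Alternatives were edgeR quasi-likelihood, DESeq2 (1.42.0), upper-quartile scaling, other count filters, a cohort term, quality weights, a fit per strain, Spearman correlation, and leaving out each mouse, to which the fits without the pair of C57BL/6J mice were added after the data were seen. The members and gene lists were chosen with earlier results of these data known. Genes named besides the members are the 2 most like each member, up to 3 per list with the largest averaged effect among those called, Nr1h4, Nr0b2 and Cyp2c70. Gm13613, Gm13614, Hsd3b7, Fgf15 and Gpbar1 are named for their overlap or their low counts. Sequences are from RefSeq.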

Additional observations from a re-analysis of the deposited data

Results flagged for a closer look

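In 12 of the 140 groups of a gene, strain and diet (8.57%), the highest or lowest mouse lay far from the others by Dixon's test. The rate of about 1 in 20 by chance holds for independent groups of normal values. Here the values were CPM without a log, and the same mice recur across genes. An excess of outlying mice can thus not be read from this share. Cyp7a1 was at 1010 CPM in 129S1/SvImJ CD replicate 7, where the other mice had 175 to 449. Cyp8b1 was at 210 CPM in PWK/PhJ CD replicate 1 (others 346 to 406) and at 196 in PWK/PhJ WD replicate 7 (others 238 to 264). Cyp27a1 was at 152 CPM in C57BL/6J CD replicate 2 (others 362 to 550), 318 in 129S1/SvImJ WD replicate 6 (others 370 to 399), 544 in WSB/EiJ CD replicate 2 (others 404 to 453) and 361 in PWK/PhJ WD replicate 6 (others 205 to 269). Cyp7b1 was at 2217 CPM in CAST/EiJ WD replicate 5 (others 1117 to 1572). Abcb11 was at 338 CPM in 129S1/SvImJ CD replicate 7 (others 437 to 491), the mouse with the high Cyp7a1. Slco1b2 was at 478 CPM in C57BL/6J WD replicate 3 (others 905 to 1105) and 935 in A/J WD replicate 3 (others 1169 to 1294), and Abcc3 at 145 CPM in C57BL/6J CD replicate 2 (others 202 to 252). The 3 values in C57BL/6J came from the mice described before the results.

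The diet effect of 4 members differed between strains by the F test of limma, with adjusted p of 0.00287 for Cyp7a1, 0.0275 for Cyp7b1, 8.69e-07 for Abcb11 and 0.00115 for Abcb4. In single strains against the mean of the other 6, the Cyp7a1 effect was -1.89 in C57BL/6J and 1.66 in CAST/EiJ. The Abcb11 effect was -0.53 in C57BL/6J, -0.40 in DBA/2J, 0.57 in WSB/EiJ and 0.60 in CAST/EiJ. The Abcb4 effect was -0.67 in CAST/EiJ.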

How the results depend on the processing

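All 20 called diet effects of the members had the same sign in every alternative, and 12 were called in each. Of the other tests, calls of 1 strain against the other 6 ended for Cyp7a1 (C57BL/6J and CAST/EiJ) and Abcb11 (DBA/2J), the F test for Cyp7b1 and the averaged effect for Slco1a1, with the values given beside each result. The count of members called moved as follows. With quality weights it was 6 in DBA/2J, 6 in A/J, 5 in 129S1/SvImJ, 5 in WSB/EiJ and 3 in PWK/PhJ, with 7 for the F test between strains and 16 pairs of a gene and a strain that differed from the other 6 strains (7 in the main analysis). With a separate fit per strain it was 2 in C57BL/6J, 7 in DBA/2J, 6 in A/J, 5 in 129S1/SvImJ, 3 in WSB/EiJ, 2 in CAST/EiJ and 4 in PWK/PhJ. Without the 2 C57BL/6J mice it was 5 in DBA/2J, 4 in A/J, 3 in WSB/EiJ and 2 in PWK/PhJ, with 7 for the F test and 13 pairs, and 9 of the 20 genes most like a member remained. WSB/EiJ had 3 with edgeR, 3 with DESeq2, 2 with upper-quartile scaling, 2 with 10 counts or more in each mouse and 2 with cohort, and PWK/PhJ 2 with cohort. With any count allowed there was 1 in A/J and 4 pairs. By Spearman, 5 of the 20 most like genes remained. Leaving out 1 mouse gave 3 to 5 in C57BL/6J, 3 to 4 in DBA/2J, 1 to 2 in A/J, 3 to 3 in 129S1/SvImJ, 1 to 3 in WSB/EiJ, 3 to 6 in CAST/EiJ and 1 to 2 in PWK/PhJ. Calls also ended for Slc10a1 in C57BL/6J with cohort (limma adjusted p = 0.0923) and with any count allowed (0.0622), Cyp8b1 in CAST/EiJ with cohort (0.0627), Abcb11 in CAST/EiJ with any count allowed (0.111), Cyp7b1 in A/J with any count allowed (0.227) and Abcc3 in CAST/EiJ with any count allowed (0.0998). With a separate fit per strain the adjusted p rose to 0.318 for Slc10a1 and 0.236 for Slco1b2 in C57BL/6J, and in CAST/EiJ to 0.106 for Cyp8b1, 0.140 for Abcb11, 0.0760 for Abcb4 and 0.0906 for Abcc3. The causes were not tested. The SE of the Cyp7a1 diet effect was 0.48 to 0.62 on the log2 scale, which limits the effects that could be resolved. No paired analysis was possible because the labels give mice no numbers that pair them across diets (replicate numbers here follow accession order); cohort, which the labels do give, was fitted within strain as a covariate.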
